A study of Mus musculus with 12 samples.

Results

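The genes described here are 44 listed genes of the cell cycle and of DNA replication, measured in splenic regulatory T cells (Treg) of mice with a conditional knockout of Cd83 and of wild-type mice, before and 3 h after stimulation. A probe was taken if it carried the name of a listed gene and if all 3 arrays of 1 group or more showed it well above background. That held for 58 of the 63 probes of these genes, against 26387 probes of the whole array, and 57 of the 58 had a value on every array. They stood for 42 of the 44 genes, among 18544 genes tested in all, and the brightest of a gene's tested probes stood for it. Of the 12 arrays, 3 held KO cells and 3 WT cells after 3 h, and 3 held KO cells and 3 WT cells before stimulation (0 h), which makes 4 groups. KO stands for the genotype labelled CD83cKO, for which no source used here names a Cre driver, and WT for CD83 wild type. All mice were female C57BL/6, and 3 h stands for activation with antibodies to CD3 and CD28. WT mice were 9 weeks old and KO mice 10 weeks, except for replicate 3 of each KO group, which came from mice of 21 weeks.

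Cells that enter the cycle pass from a resting state into G1 through D-type cyclins and their kinases Cdk4 and Cdk6, which inhibitors such as p21 (Cdkn1a) and p27 (Cdkn1b) hold back. E2F transcription factors then switch on genes for loading the MCM helicase, for copying DNA and for making nucleotides, and a later wave of genes builds the spindle, separates the chromosomes and divides the cell. Part of the Treg pool of the spleen divides in healthy mice, and T cells stimulated through CD3 and CD28 pass through a long G1 before they copy their DNA. These array values are levels in bulk RNA, so fewer dividing cells and less of a transcript per cell cannot be told apart.

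Promoter sequences of the members were read from RefSeq (GRCm38.p6), which had an entry for 38 of the 44 genes, with 44 windows from 250 bases before to 50 bases after a start site. Ccna2, Ccnd2, Gins2, Kif20a, Mcm4 and Tpx2 had none. 3 kinds of short sequence known from cell cycle promoters were searched on both strands of these windows. An E2F word (TTTCCCGC, TTTCGCGC, TTTGCCGC or TTTGGCGC) stood in 8 of the 44 windows (18.2%), against 2.26% of all 32851 windows in the table. A word of the cell cycle homology region, CHR (TTTGAA or TTCGAA), stood in 16 windows (36.4%), against 19.2% of all windows, and the CCAAT box in 30 windows (68.2%), against 37.4%. Within the members, the E2F word was found in 7 of 9 genes of licensing and replication and in 0 of 16 mitotic genes. The CHR word was found in 12 of 16 mitotic genes and in 2 of 9 licensing and replication genes, and CCAAT in 14 of 16 and 7 of 9. In the members' windows 1 pair of words of different kinds overlapped, as did 2 pairs of E2F words and 1 pair of CCAAT boxes. A matching word is a description of the sequence and not a binding site.

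The 200 bases before the start site are shown for 8 members, with every matching word in capitals and the strand of the gene read 5′ to 3′. The first 3 are mitotic genes with CHR words and CCAAT boxes, Mki67 (chr7:135716380-135716579, minus strand), Top2a (chr11:99024190-99024389, minus strand) and Ccnb2 (chr9:70421555-70421754, minus strand). The next 3 are licensing genes with E2F words, Cdc6 (chr11:98907951-98908150, plus strand), Mcm5 (chr8:75109309-75109508, plus strand) and Mcm6 (chr1:128359706-128359905, minus strand). The last are the members that passed the test between genotypes at 0 h, Mcm2 (chr6:88898781-88898980, minus strand) and Kif23 (chr9:61946800-61946999, minus strand), and neither holds an E2F word in its window.
Mki67: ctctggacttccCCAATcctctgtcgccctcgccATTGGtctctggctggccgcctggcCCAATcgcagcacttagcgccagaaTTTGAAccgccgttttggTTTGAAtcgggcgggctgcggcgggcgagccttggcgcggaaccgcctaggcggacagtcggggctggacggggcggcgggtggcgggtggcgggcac
Top2a: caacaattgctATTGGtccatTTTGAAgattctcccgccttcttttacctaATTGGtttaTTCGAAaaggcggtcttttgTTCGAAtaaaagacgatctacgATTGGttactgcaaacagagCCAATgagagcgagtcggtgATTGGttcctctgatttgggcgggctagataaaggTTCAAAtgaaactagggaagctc
Ccnb2: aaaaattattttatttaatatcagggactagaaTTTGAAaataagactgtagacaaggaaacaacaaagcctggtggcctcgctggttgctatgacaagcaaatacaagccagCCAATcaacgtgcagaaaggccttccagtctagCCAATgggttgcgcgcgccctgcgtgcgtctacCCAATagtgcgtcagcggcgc
Cdc6: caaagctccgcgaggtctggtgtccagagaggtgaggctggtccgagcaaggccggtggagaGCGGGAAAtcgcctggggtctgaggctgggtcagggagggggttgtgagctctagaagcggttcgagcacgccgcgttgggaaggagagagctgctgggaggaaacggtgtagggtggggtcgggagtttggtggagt
Mcm5: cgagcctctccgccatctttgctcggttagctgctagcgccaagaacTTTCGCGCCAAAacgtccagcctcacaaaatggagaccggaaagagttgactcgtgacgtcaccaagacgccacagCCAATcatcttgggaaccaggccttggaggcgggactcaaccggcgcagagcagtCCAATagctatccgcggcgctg
Mcm6: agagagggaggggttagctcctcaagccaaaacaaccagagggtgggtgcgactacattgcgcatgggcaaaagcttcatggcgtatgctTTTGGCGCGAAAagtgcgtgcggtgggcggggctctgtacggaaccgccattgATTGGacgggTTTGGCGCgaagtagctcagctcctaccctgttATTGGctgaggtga
Mcm2: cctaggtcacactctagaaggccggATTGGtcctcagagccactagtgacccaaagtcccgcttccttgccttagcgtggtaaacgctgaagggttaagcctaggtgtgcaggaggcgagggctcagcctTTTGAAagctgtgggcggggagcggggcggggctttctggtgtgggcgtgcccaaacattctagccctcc
Kif23: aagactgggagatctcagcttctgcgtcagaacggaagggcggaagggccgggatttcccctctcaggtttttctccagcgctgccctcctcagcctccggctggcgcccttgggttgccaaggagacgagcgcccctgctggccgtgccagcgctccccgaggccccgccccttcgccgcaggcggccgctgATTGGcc

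The levels are log2 values of background-corrected signal intensity relative to each array's own 75th percentile of bright probes, and the number of arrays limits their precision. The signal at that percentile ran from 167.5 to 331.9 intensity units and 43.06% to 54.62% of probes were well above background. Cd83 itself was at 1.06, 1.07 and 1.92 in KO at 3 h, against 4.21, 3.69 and 3.65 in WT at 3 h, and at 0.75, 0.29 and 0.23 in KO at 0 h, against 2.36, 2.17 and 2.38 in WT at 0 h, lower in KO at both times but not absent. Cd3e, Cd4, Il2ra, Ikzf2 and Ctla4 exceeded background on all 12 arrays, but the probe of Foxp3, the defining transcription factor of Treg, did so on 3 of 3 arrays of each KO group and on 0 of 3 of each WT group. The series lists 6 mice for the 12 arrays and ties no array to a mouse, so the p-values treat as independent arrays that may share a mouse, and measure the spread between arrays. All 6 KO arrays lay on 1 slide and each WT group on a slide of its own, so that genotype and slide cannot be told apart, and neither can activation and slide in WT. KO differences between times lie within 1 slide.

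Some KO arrays stood apart for these genes. KO at 3 h replicate 1 lay below the mean of the other 2 KO arrays at 3 h for 37 of 42 members, with a median difference of -1.48 (log2) and a difference beyond -1 in 24 of them. Across all 18544 genes the same array was below the other 2 for 8982, with a median difference of 0.02. The deficit was largest in the mitotic genes, of which 18 of 18 were lower on that array (median -2.10), and smaller in licensing and replication, where 8 of 11 were lower (median -0.30). The array from the 21-week KO mouse at 0 h was the highest of its group for 35 of 42 members. Such counts were not particular to that array, because 1 array was lowest for most members in each group. KO at 0 h replicate 1 was the lowest for 36 of 42, and WT replicate 3 for 32 at 3 h and 31 at 0 h. Results that rest on KO at 3 h replicate 1 or on the 21-week arrays are given with and without them. The median SD within a group was 0.861 for the members in KO at 3 h and 0.501 in KO at 0 h, against 0.216 in WT at 3 h and 0.136 in WT at 0 h. Over all genes it was 0.464 in KO at 3 h and 0.386 in KO at 0 h, against 0.140 and 0.137 in WT. The KO arrays were thus more spread over all genes too.

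**Figure D1:**
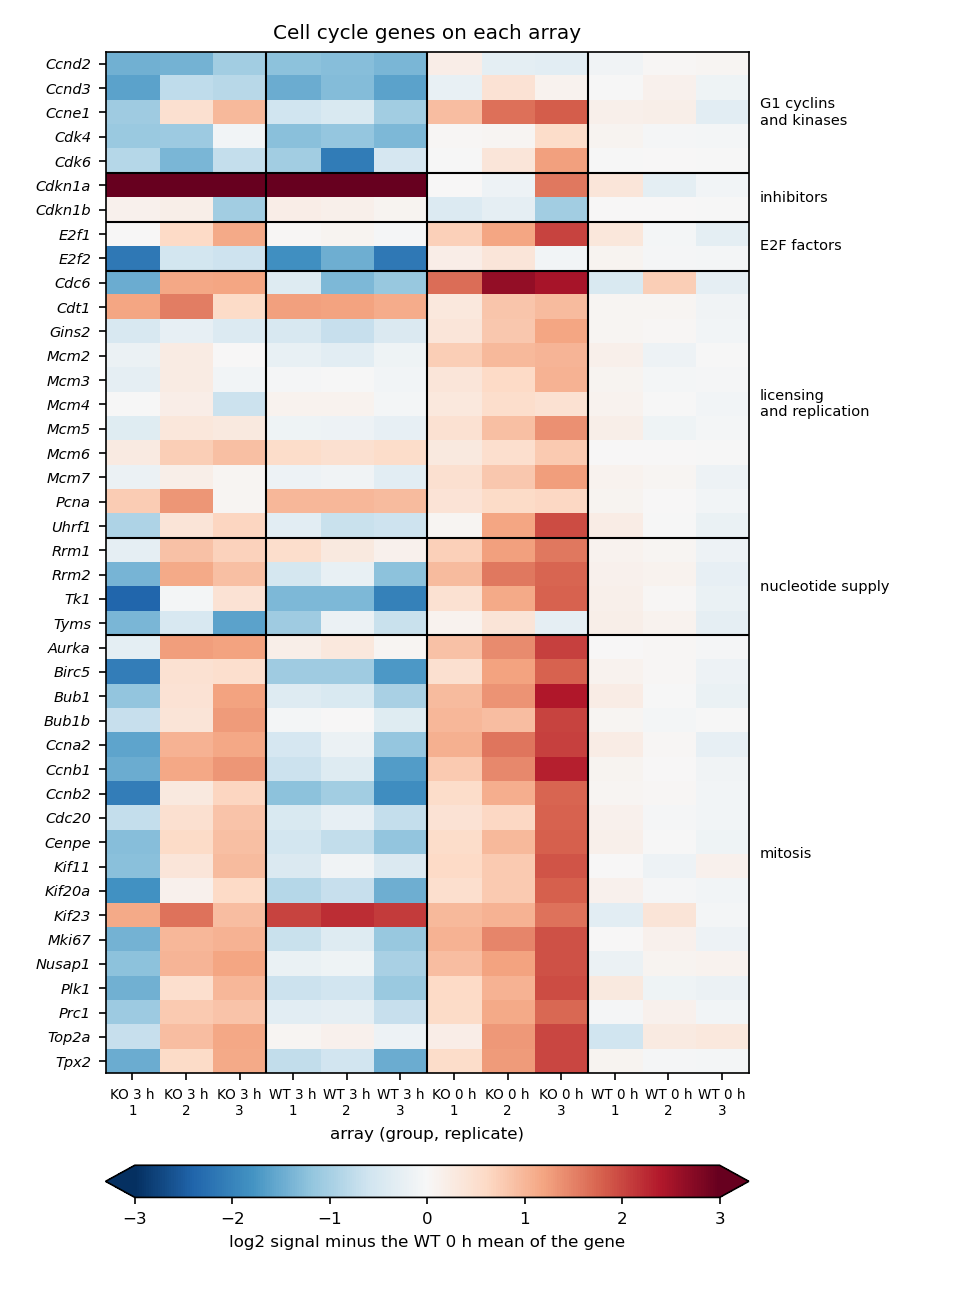
Heat map of the 42 members (rows, by role) on the 12 arrays (columns, by group and replicate), in log2 signal minus the gene's mean in WT at 0 h, with colours clipped at -3 and 3. The column of KO at 3 h replicate 1 is blue where the other KO columns at 3 h are red for most mitotic genes, and the KO columns at 0 h are red in nearly every row.

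The first comparison asks how the genotypes differ before activation. At 0 h 40 of the 42 members were above 0 in the KO minus WT difference and 2 were below, Ccnd2 (-0.14) and Cdkn1b (-0.57). The median difference was 1.10 (log2), against -0.03 over all genes tested. In 32 of 42 members all 3 KO arrays were above all 3 WT arrays, where 16.9% of all genes were separated in that direction, and 1 member, Cdkn1b, was separated the other way. Only Mcm2 and Kif23 passed the test, 2 of 42 members, against 1.82% of all genes called higher (limma, Benjamini-Hochberg adjusted p under 0.05 over 18544 genes), and 0 were called lower. At an unadjusted p under 0.05 the members higher in KO were 21 of 42, against 10.6% of all genes, and 0 were lower, against 4.78%.

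Mcm2 is a subunit of the MCM helicase that unwinds DNA at replication origins, and its probe maps to chr6:88833619-88833678 on mm9, the build of the array design. Its level was -0.83, -0.59 and -0.54 in KO at 0 h, against -1.42, -1.72 and -1.58 in WT at 0 h. Every KO array lay above every WT array, and the spread within each group was a fraction of the distance between them. Mcm2 was higher in KO by 0.92 ± 0.160 (log2 difference ± SE, limma adjusted p = 0.0204). Kif23, a kinesin of the central spindle needed for the final separation of daughter cells, was at -3.98, -3.91 and -3.31 in KO, against -5.28, -4.58 and -5.00 in WT, and its probe maps between 61767492 and 61767732 of chromosome 9 on mm9. It was higher in KO by 1.22 ± 0.256 (limma adjusted p = 0.0414). These calls were near the threshold: Mcm2 had an adjusted p of 0.0719 when arrays were scaled on all probes and Kif23 one of 0.146 after quantile normalization, with differences of 0.73 and 1.01.

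Cdc6, which loads the MCM helicase onto origins, had the largest difference between genotypes at 0 h. It was at -4.15, -3.19 and -3.35 in KO, against -6.29, -5.09 and -6.11 in WT, a difference of 2.26 ± 0.674 that did not pass the test (limma adjusted p = 0.137). The groups did not overlap, but the arrays of each group lay further apart than those of Mcm2. Ccna2, the A-type cyclin of S phase and G2, was at -0.56, -0.02 and 0.43 in KO, against -1.41, -1.59 and -1.88 in WT (difference 1.58 ± 0.640, adjusted p = 0.275). Bub1, a kinase of the spindle checkpoint, was at -4.05, -3.64 and -2.59 in KO, against -4.78, -5.01 and -5.19 in WT (difference 1.57 ± 0.552, adjusted p = 0.207). In all 3 genes the KO arrays were separated from the WT arrays and were themselves spread widely, with the 21-week array the highest for Ccna2 and Bub1.

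The D-type cyclins Ccnd2 and Ccnd3 and the kinase Cdk4 differed by less than their standard error between genotypes at 0 h. Ccnd2 and Ccnd3 had differences of -0.14 ± 0.178 and 0.11 ± 0.250, and Cdk4 one of 0.22 ± 0.268, with overlapping arrays. Ccne1, the E-type cyclin that drives the step into S phase, was at 0.09, 0.81 and 0.99 in KO, against -0.68, -0.66 and -1.15 in WT (difference 1.46, adjusted p = 0.164). Among the E2F factors, E2f1 had a difference of 1.30 and separated arrays, and E2f2 one of 0.16 and overlapping arrays. All 11 licensing and replication genes were above 0, from 0.44 (Mcm4) to 2.26 (Cdc6), and 10 of them had separated arrays; 1 was called. All 18 mitotic genes were above 0, from 0.95 (Cdc20, an activator of the anaphase-promoting complex) to 1.58 (Ccna2). In 17 of these 18 the arrays were separated, and Top2a, the topoisomerase that disentangles sister chromosomes, was the exception. In nucleotide supply, Rrm1 and Rrm2, subunits of ribonucleotide reductase, and the thymidine kinase Tk1 had differences of 1.12 to 1.43 and separated arrays, and the thymidylate synthase Tyms one of 0.07.

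Mki67, the gene of the proliferation antigen Ki-67, shows the pattern of the mitotic genes. It was at 1.95, 2.37 and 2.82 in KO at 0 h, against 0.92, 1.04 and 0.75 in WT at 0 h. The lowest KO array was above the highest WT array by about the width of the KO group, and the difference of 1.47 ± 0.569 did not pass the test (limma adjusted p = 0.251). In that model all groups share 1 estimate of the spread, which the divergent array of KO at 3 h widens. That array was singled out by its low values for these members, so a narrower spread without it follows from the choice. Without KO at 3 h replicate 1, which is not part of this comparison, 10 members were called higher in KO at 0 h, against 3.44% of all genes: Mcm2, Cdc6, Mki67, Aurka, Ccne1, Rrm1, Ccna2, Rrm2, Kif23 and Nusap1. Without the 2 arrays from 21-week mice the median difference was 0.76, 33 of 42 members were separated higher (23.7% of all genes), and 2 were called higher (4.71% of all genes).

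**Figure D2:**
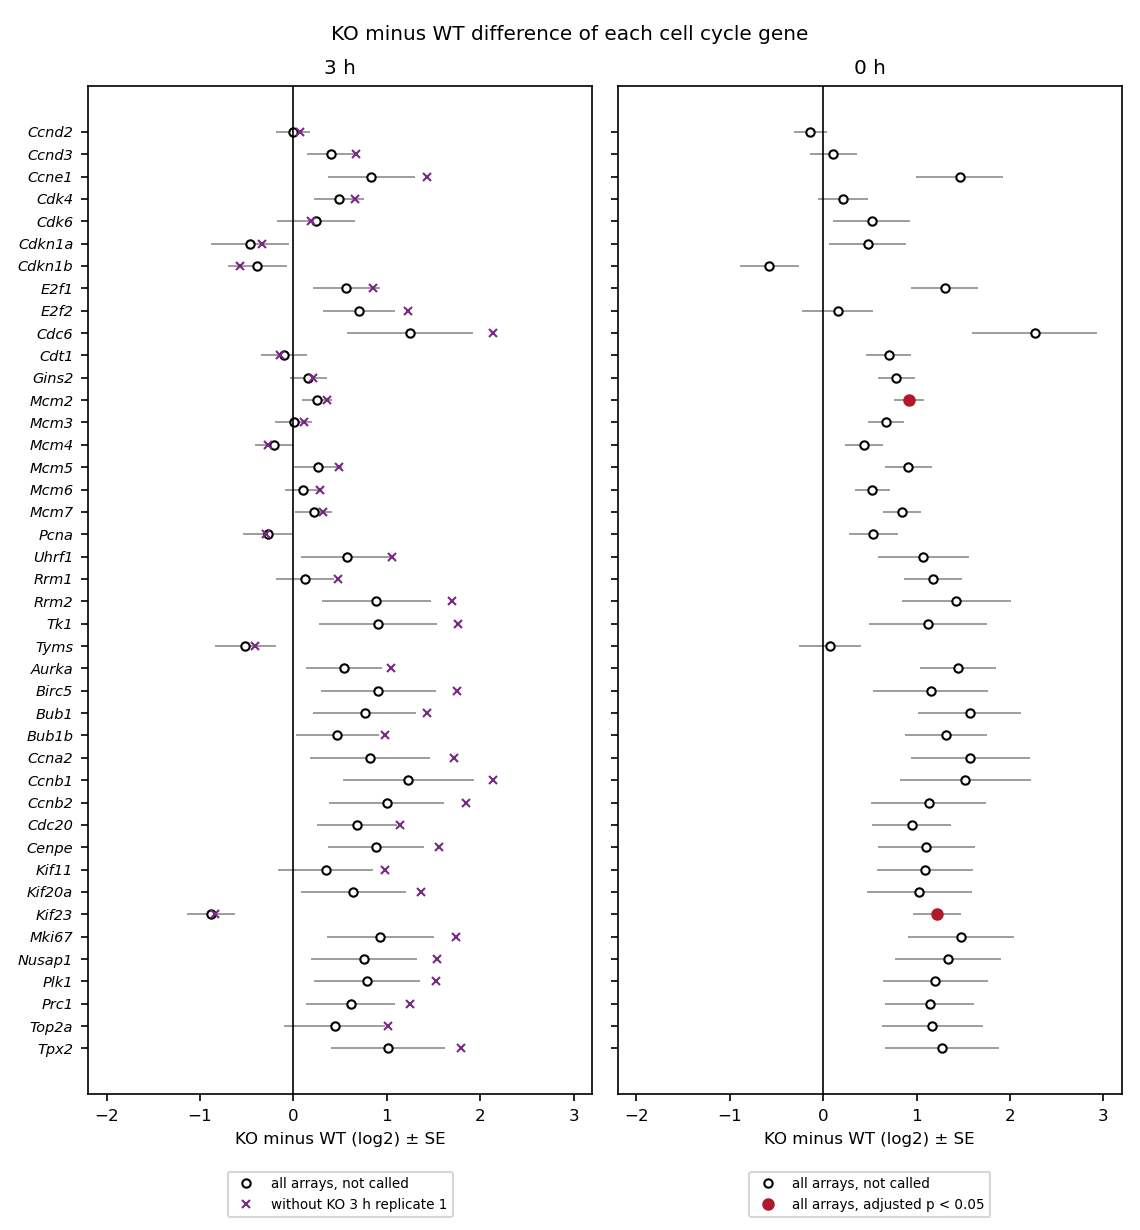
KO minus WT difference of each of the 42 members in log2 units at 3 h (left) and 0 h (right), with bars for the standard error from limma, filled points for an adjusted p under 0.05 and crosses for the 3 h difference without KO at 3 h replicate 1. At 0 h 40 points lie right of 0 and Mcm2 and Kif23 are filled; at 3 h no point is filled, and the crosses lie to the right of the circles for most mitotic genes.

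After 3 h of stimulation none of the members passed the test between genotypes, where 2 of 42 had passed at 0 h. KO minus WT was above 0 for 34 of 42 members and below 0 for 8, with a median of 0.51 against 0.04 over all genes. In limma 0 of 42 were called in either direction, where 1.26% of all genes were called higher and 0.189% lower, and at an unadjusted p under 0.05 the count was 0 higher and 1 lower, against 7.85% and 2.71% of all genes. Arrays did not overlap for 1 member that was higher in KO, Cdk4, and for 1 that was lower, Kif23, against 11.8% and 7.39% of all genes. Cdc6 was at -7.31, -4.67 and -4.64 in KO at 3 h, against -6.20, -7.19 and -6.97 in WT at 3 h (difference 1.25 ± 0.674, adjusted p = 0.535). Ccnb1, a B-type cyclin that drives entry into mitosis, was at -3.75, -1.09 and -0.93 in KO, against -2.89, -2.63 and -3.93 in WT (difference 1.23 ± 0.701, adjusted p = 0.546). Tpx2, a spindle assembly factor, was at -4.86, -2.80 and -2.22 in KO, against -4.11, -3.94 and -4.86 in WT (difference 1.01 ± 0.610, adjusted p = 0.560). In each of these genes replicates 2 and 3 of KO lay above every WT array and replicate 1 did not.

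The 3 h comparison rests on that array. Mki67 was at -0.52, 1.89 and 1.95 in KO at 3 h, against 0.23, 0.53 and -0.22 in WT at 3 h, so that 1 KO array lay below all WT arrays and the other 2 KO arrays above them. KO at 3 h replicate 1 was singled out by its low values for most of these members. Leaving it out therefore raises their KO minus WT difference and narrows their spread by the choice itself. The counts without it are descriptions only. Without KO at 3 h replicate 1, 32 of 42 members were separated higher in KO, against 22.5% of all genes, and the median difference was 1.00. In limma 12 members were then called higher, against 2.67% of all genes: Mki67, E2f2, Ccnb2, Rrm2, Birc5, Ccna2, Cdc6, Tk1, Ccnb1, Nusap1, Cenpe and Ccne1, with differences from 1.22 (E2f2) to 2.14 (Cdc6 and Ccnb1). Of these, 7 belong to mitosis, among them Birc5 (survivin, of the chromosomal passenger complex), Cenpe (a kinetochore motor) and Nusap1 (a spindle-associated protein). Leaving out the 21-week array of KO at 3 h instead gave a median of 0.25 and 0 calls, where 0.901% of all genes were called higher. The licensing genes differed little at 3 h with all arrays, from -0.27 (Pcna, the sliding clamp of DNA polymerases) to 1.25 (Cdc6), with a median of 0.16.

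**Figure D3:**
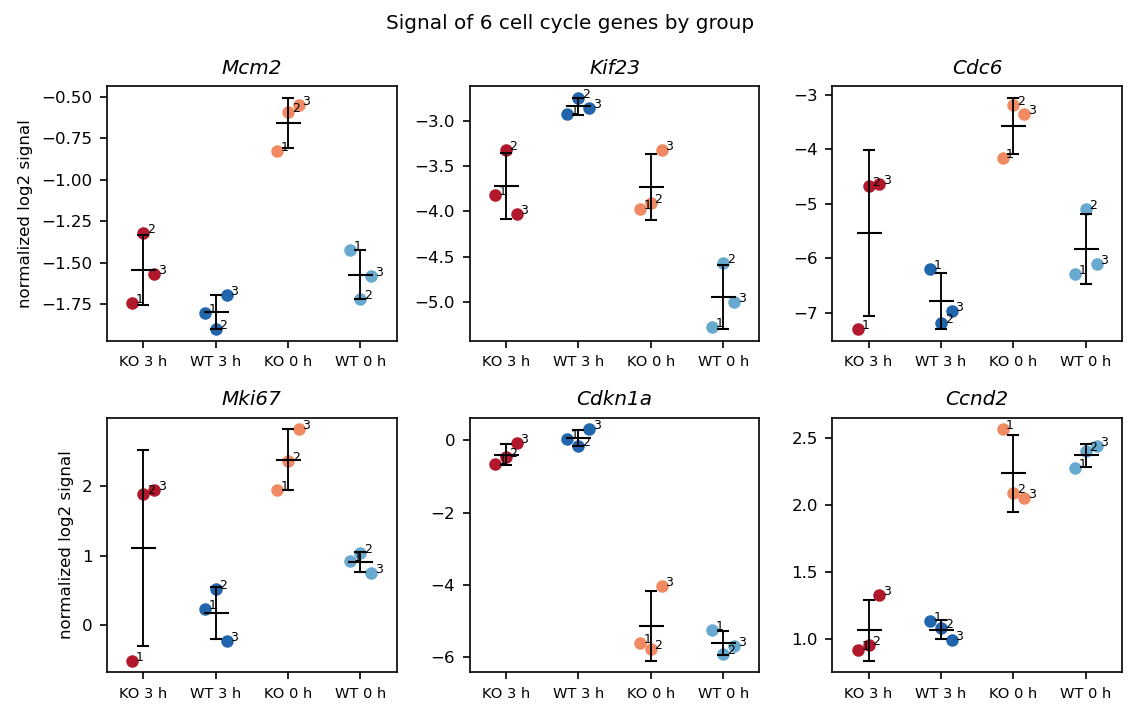
Normalized log2 signal of 6 members on each array, with points numbered by replicate and black bars for the group mean and SD of 3 arrays. Mki67 and Cdc6 have 1 low array in KO at 3 h, Kif23 is highest in WT at 3 h, and Cdkn1a is high and Ccnd2 low at 3 h in both genotypes.

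After activation Ccnd2, Ccnd3, Cdk4, Cdk6 and E2f2 fell and Cdkn1a rose in KO and in WT alike. These comparisons use the same KO and WT groups as those between genotypes, so their values are not independent of them. In KO, 10 of 42 members fell and 1 rose, against 9.79% and 7.38% of all genes, and 36 were below 0, with a median of -1.04 against -0.04 over all genes. In WT, 5 fell and 4 rose, against 16.6% and 13.3% of all genes, and 31 were below 0, with a median of -0.54 against -0.14. A fit of the 6 arrays of the KO slide alone has no slide term and fewer arrays to estimate the spread, and its differences are the same. In it Cdkn1a was still called (limma adjusted p = 0.0392), but 0 members were called lower. Over all genes 0.329% were called lower and 0.232% higher in that fit. None of the falls in KO given below passed there, with adjusted p from 0.114 (Ccnd2) to 0.261 (Mcm3). Arrays did not overlap for 14 lower and 1 higher members in KO (13.5% and 10.9% of all genes) and for 20 lower and 8 higher members in WT (39.5% and 29% of all genes). At an unadjusted p under 0.05, 21 were lower and 1 higher in KO (17.8% and 14.5% of all genes), and 8 lower and 5 higher in WT (23.2% and 18.2%).

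Cdkn1a, which encodes the kinase inhibitor p21, had the largest change of all members. Its level was -0.65, -0.45 and -0.08 in KO at 3 h, against -5.62, -5.79 and -4.03 in KO at 0 h, a rise of 4.75 ± 0.413 or 27.0-fold (limma adjusted p = 0.000233). In WT it was 0.04, -0.14 and 0.32 at 3 h, against -5.26, -5.91 and -5.70 at 0 h, a rise of 5.70 ± 0.413 or 51.9-fold (adjusted p = 6.9e-05). The groups were far apart in either genotype, and its probe maps to chr17:29237377-29237436 on mm9. Another probe of Cdkn1a, at chr17:29235299-29235358, exceeded background on 0 of 6 arrays at 0 h and on 6 of 6 at 3 h. Cdkn1b, which encodes p27, was not called in either genotype, with differences of 0.33 ± 0.314 in KO and 0.14 ± 0.314 in WT.

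The D-type cyclins Ccnd2 and Ccnd3 fell in both genotypes. Ccnd2 was at 0.92, 0.96 and 1.33 in KO at 3 h, against 2.56, 2.08 and 2.05 in KO at 0 h, and fell by 1.17 ± 0.178 (limma adjusted p = 0.00304). In WT it was at 1.14, 1.08 and 0.99 at 3 h, against 2.27, 2.40 and 2.44 at 0 h, and fell by 1.30 ± 0.178 (adjusted p = 0.000846). Neither pair of groups overlapped, and the arrays of KO and WT at 3 h overlapped. Ccnd3 was at 0.89, 1.75 and 1.67 in KO at 3 h, against 2.28, 2.93 and 2.62 in KO at 0 h, and at 1.01, 1.21 and 0.90 in WT at 3 h, against 2.50, 2.64 and 2.36 in WT at 0 h. It fell by 1.17 ± 0.250 in KO (adjusted p = 0.0118) and by 1.46 ± 0.250 in WT (adjusted p = 0.00245).

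Their kinase Cdk4 was at 0.68, 0.70 and 1.71 in KO at 3 h, against 1.84, 1.85 and 2.35 in KO at 0 h, and at 0.54, 0.64 and 0.46 in WT at 3 h, against 1.88, 1.77 and 1.75 in WT at 0 h. It fell by 0.98 ± 0.268 in KO (limma adjusted p = 0.0325) and by 1.26 ± 0.268 in WT (adjusted p = 0.00704), and in KO the 21-week array was the highest at either time. Cdk6, another kinase of D-type cyclins, was dim: in KO it exceeded background on 0 of 3 arrays at 3 h and on 3 of 3 at 0 h. Cdk6 fell in KO at least 1.90-fold (adjusted p = 0.0337) and in WT by 1.22 ± 0.413 (adjusted p = 0.0484), where 2 of 3 arrays at 3 h were well above background. A fold given as at least that size sets the brighter group against the dimmest signal that counted as well above background on the dim arrays. With another background correction, normexp, the Cdk6 differences were -0.25 in KO and -0.32 in WT and were not called.

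E2f2, an activating E2F factor, was at -0.47, 1.13 and 1.06 in KO at 3 h, against 1.88, 2.04 and 1.60 in KO at 0 h, and at -0.15, 0.23 and -0.47 in WT at 3 h, against 1.77, 1.65 and 1.63 in WT at 0 h. The times were separated in each genotype, and KO at 3 h replicate 1 again lay well below the other 2 KO arrays. E2f2 fell by 1.27 ± 0.381 in KO (limma adjusted p = 0.0466) and by 1.81 ± 0.381 in WT (adjusted p = 0.0065). E2f1, a related activator, was at -2.16, -2.10 and -2.22 in WT at 3 h, against -1.84, -2.25 and -2.47 in WT at 0 h. Those arrays overlapped, with a difference of 0.02 ± 0.359 in WT and of -0.71 ± 0.359 in KO, and neither was called.

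**Figure D4:**
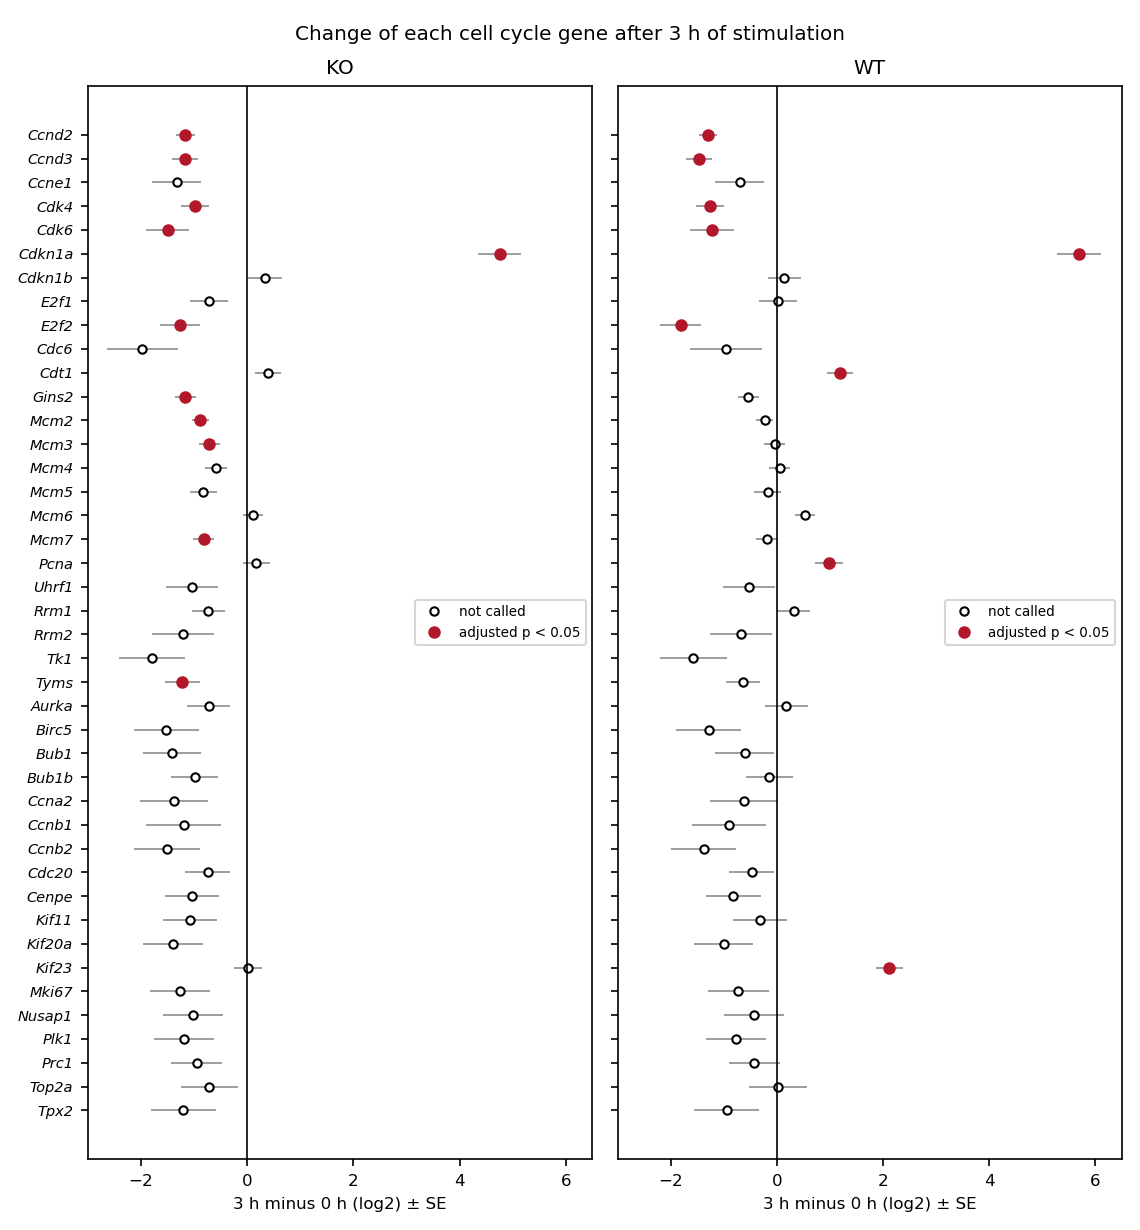
Difference of each of the 42 members between 3 h and 0 h in log2 units in KO (left) and WT (right), with bars for the standard error from limma and filled points for an adjusted p under 0.05. Ccnd2, Ccnd3, Cdk4, Cdk6 and E2f2 are filled left of 0 and Cdkn1a right of 0 in both panels, Mcm2, Mcm3, Mcm7, Gins2 and Tyms are filled in the KO panel, and Kif23, Cdt1 and Pcna in the WT panel.

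Among the licensing and replication genes, 4 of 11 fell in KO after activation and 0 of 11 in WT, against 9.79% and 16.6% of all genes. In KO 0 rose and in WT 2 rose, against 7.38% and 13.3%. The change in KO minus the change in WT was called for 0 of 11. Gins2, a subunit of the GINS complex that joins the MCM helicase at the fork, was at -3.62, -3.38 and -3.56 in KO at 3 h, against -2.77, -2.33 and -1.96 in KO at 0 h, and fell by 1.16 ± 0.199 (limma adjusted p = 0.00495). Mcm2 was at -1.74, -1.32 and -1.57 in KO at 3 h and fell by 0.89 ± 0.160 from the 0 h values given above (adjusted p = 0.00613). In WT, Mcm2 was at -1.80, -1.90 and -1.69 at 3 h, a difference of -0.23 ± 0.160 from 0 h that was not called. The helicase subunits Mcm7 and Mcm3 fell in KO by 0.82 ± 0.202 and 0.71 ± 0.197 (adjusted p = 0.0218 and 0.0343). Mcm7 was at 1.19, 1.55 and 1.43 in KO at 3 h, against 1.84, 2.18 and 2.61 in KO at 0 h, and Mcm3 at 0.39, 0.90 and 0.57, against 1.02, 1.27 and 1.71. For Mcm2, Mcm3 and Mcm7 all KO arrays at 0 h lay above all arrays of the other 3 groups, and the KO minus WT differences were 0.26, 0.00 and 0.22 at 3 h, against 0.92, 0.67 and 0.85 at 0 h.

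Cdt1, which loads the MCM helicase together with Cdc6, rose in WT. It was at 1.83, 1.80 and 1.71 in WT at 3 h, against 0.65, 0.64 and 0.48 in WT at 0 h, and rose by 1.19 ± 0.245 (limma adjusted p = 0.00581). Pcna was at 2.55, 2.53 and 2.50 in WT at 3 h, against 1.62, 1.55 and 1.46 in WT at 0 h, and rose by 0.98 ± 0.263 (adjusted p = 0.0189). The WT arrays of both genes were tight and far apart between times. In KO, Cdt1 was at 1.77, 2.11 and 1.16 at 3 h, against 0.91, 1.42 and 1.54 at 0 h, and Pcna at 2.30, 2.86 and 1.59, against 1.95, 2.13 and 2.16; the KO arrays overlapped, with the 21-week array the lowest at 3 h. Without the 21-week arrays Cdt1, Pcna and Cdkn1b were called higher in KO as well, beside Cdkn1a, where 20.2% of all genes were.

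In nucleotide supply, Tyms was at -7.47, -6.60 and -7.73 in KO at 3 h, against -6.01, -5.72 and -6.39 in KO at 0 h. Its signal exceeded background on 0 of 3 KO arrays at 3 h and 3 of 3 at 0 h, and fell at least 1.39-fold (limma adjusted p = 0.0307), but with normexp the difference was -0.02. Tk1 was separated between times in either genotype without passing the test, with differences of -1.79 ± 0.630 in KO (adjusted p = 0.0783) and -1.57 ± 0.630 in WT (adjusted p = 0.0857). Rrm1 and Rrm2 were not called in either genotype.

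None of the 18 mitotic genes fell in either genotype by the test, against 9.79% of all genes in KO and 16.6% in WT. Kif23 in WT was the 1 that rose, against 13.3% of all genes. In KO 17 of 18 were below 0, with a median of -1.13, and 0 of 18 were separated between times; in WT 15 of 18 were below 0, with a median of -0.61, and 11 were separated lower, where 13.5% of all genes were separated lower in KO and 39.5% in WT. At an unadjusted p under 0.05 the mitotic genes lower at 3 h were 5 of 18 in KO and 1 of 18 in WT, against 17.8% and 23.2% of all genes. The size of the changes in KO and the number of calls depend on the array that stood apart. The members separated lower in KO were 14 with that array and 14 without it, against 13.5% and 15.8% of all genes. Over all members the median change in KO was -0.48 without KO at 3 h replicate 1, and the members called lower were then 4, Ccnd2, Gins2, Mcm2 and Ccnd3, against 6.08% of all genes. Without the 21-week arrays 16 members were called lower in KO, where the share of all genes was 25.9%. Without KO at 3 h replicate 3 alone 23 were, Mki67, Birc5, Plk1 and Tpx2 among them, where the share of all genes was 20.2%, against 9.79% with all arrays.

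Kif23 did not follow the other mitotic genes. In WT it was at -2.92, -2.74 and -2.85 at 3 h, against -5.28, -4.58 and -5.00 at 0 h, and rose by 2.12 ± 0.256 or 4.34-fold (limma adjusted p = 0.000488). In KO it was at -3.81, -3.31 and -4.03 at 3 h, against -3.98, -3.91 and -3.31 at 0 h, with overlapping arrays and a difference of 0.01 ± 0.256. At 3 h all KO arrays lay below all WT arrays (difference -0.88 ± 0.256, adjusted p = 0.193), whereas at 0 h all KO arrays lay above. The other Kif23 probe meeting the rule had no value on 1 WT array at 0 h and was not tested.

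Whether genotype alters the response to stimulation was tested as the change in KO minus the change in WT, and 0 of 42 members and 0 of 18544 genes passed the test. It was below 0 for 37 of 42 members, with a median of -0.58 against 0.06 over all genes, and at an unadjusted p under 0.05 it was lower for 5 members and higher for 0, against 1.83% and 1.87% of all genes. Kif23 had the largest difference, -2.10 ± 0.363 (limma adjusted p = 0.441), followed by Rrm1 at -1.05 ± 0.440 and Cdc6 at -1.01 ± 0.953 (adjusted p = 1.00 each). Without KO at 3 h replicate 1 the median was -0.07.

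Other genes of the cell cycle were taken from the same fit. Of 84 further cell cycle genes listed, 77 were tested. At 0 h 3 of 77 were higher in KO and 0 lower (median 0.63), against 1.82% and 0.259% of all genes. They were Ccnd1 (the third D-type cyclin, 2.55, limma adjusted p = 0.00946), Cdc45 (a partner of the MCM helicase, 1.32, adjusted p = 0.0200) and Foxm1 (a transcription factor of mitotic genes, 1.46, adjusted p = 0.0214). At 3 h 0 of 77 were called (median 0.26), against 1.26% of all genes called higher and 0.189% lower. After activation in KO 13 of 77 fell and 1 rose (median -0.67), against 9.79% and 7.38% of all genes. Ccnd1 (-2.65), Chaf1b, Rbl1 and Pold1 led the falls, and Lin54 was the rise. In WT 10 fell and 8 rose (median -0.30), against 16.6% and 13.3% of all genes. Orc5, Rbl1, E2f3 and Pold1 were among the falls and Lin54, Dbf4, Cenpa and Ndc80 among the rises. Without KO at 3 h replicate 1, 6 of the 77 were higher in KO at 3 h and 15 at 0 h, against 2.67% and 3.44% of all genes.

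The arrays lowest and highest for the members were compared with those lowest and highest for cell type markers. With 3 arrays a group some matches arise by chance, and the matches were not tested. Within each of the 4 groups the array with the lowest mean over the 42 members was also the lowest for 7 erythroid markers, and in 3 of 4 groups for 8 plasma cell markers, while for 14 T cell and Treg markers it was so in 0 of 4, for the monocyte and macrophage markers in 1 and for the B cell markers in 2. The array highest for the members was also the highest for the erythroid and for the T cell markers in 1 of 4 groups each, and for the plasma cell, monocyte and B cell markers in 2 each. Set against the mean of WT at 0 h, the members averaged -0.74, 0.52 and 0.58 in KO at 3 h, against -0.22, -0.20 and -0.50 in WT at 3 h, and 0.52, 0.92 and 1.40 in KO at 0 h, against 0.06, 0.03 and -0.09 in WT at 0 h. The erythroid markers averaged -1.10, 2.74 and 1.78 in KO at 3 h, against -0.20, 0.83 and -2.27 in WT at 3 h, and 2.69, 3.48 and 2.89 in KO at 0 h, against 0.22, 1.11 and -1.33 in WT at 0 h. KO at 3 h replicate 1 was the low array of its group for both lists. By mean level it was also the lowest for the plasma cell, monocyte and macrophage, and B cell markers. The same held for the dendritic cell, neutrophil, NK cell and platelet markers, but not for the T cell and Treg or the CD8 T cell markers. The erythroid genes were separated higher in KO at 0 h for 7 of 7, against 16.9% of all genes, with 0 called.

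The log2 of the summed signal of the erythroid markers ran from 2.16 to 5.56 in KO at 3 h, against 1.03 to 3.79 in WT at 3 h, and from 5.29 to 6.23 in KO at 0 h, against 1.93 to 4.04 in WT at 0 h. Plasma cell markers, summed likewise, ran from 3.57 to 8.18 in KO at 3 h, against 3.36 to 3.59 in WT at 3 h, and from 4.12 to 7.70 in KO at 0 h, against 2.47 to 2.70 in WT at 0 h, and were highest on the 21-week arrays. Those arrays were also lowest for the T cell and Treg markers, with means of -2.06 at 3 h and -1.62 at 0 h, against -0.18 to -0.03 on the other KO arrays. The medians on these other KO arrays were -0.40 and -0.78 at 3 h and -0.40 on either array at 0 h. Foxp3 was the 1 marker of this list above 0 in KO minus WT at either time. At 0 h 13 of 14 were below 0 (median -0.90) and 11 were separated lower, against 14.8% of all genes, with 0 called lower. At 3 h 13 were below 0 (median -0.81) and 3 were separated lower, against 7.39%. Of 10 monocyte and macrophage markers, 9 were called higher in KO at 3 h and 10 at 0 h, against 1.26% and 1.82% of all genes. Their summed levels ran from 2.27 to 3.26 in KO at 3 h, against 0.03 to 0.51 in WT at 3 h, and from 4.70 to 5.25 in KO at 0 h, against 2.35 to 3.22 in WT at 0 h. Tested markers of other cells were mostly above 0 in KO minus WT at 0 h too: 8 of 8 of B cells (median 1.41), 4 of 5 of dendritic cells (median 2.89, 1 called higher), 2 of 2 of neutrophils (2.77), 4 of 4 of NK cells (1.07), 2 of 2 of platelets (2.78) and 2 of 2 of CD8 T cells (1.30). In these lists other than dendritic cells 0 were called. Of the same lists, the B cell marker Pax5, the dendritic cell marker Xcr1, the neutrophil markers Ly6g, S100a8 and S100a9, the NK cell marker Ncr1 and the platelet marker Ppbp did not exceed background on 3 of 3 arrays in any group. Erythroid precursors and plasmablasts are dividing cells too, and the part of these cells in the cell cycle values was not tested.

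**Figure D5:**
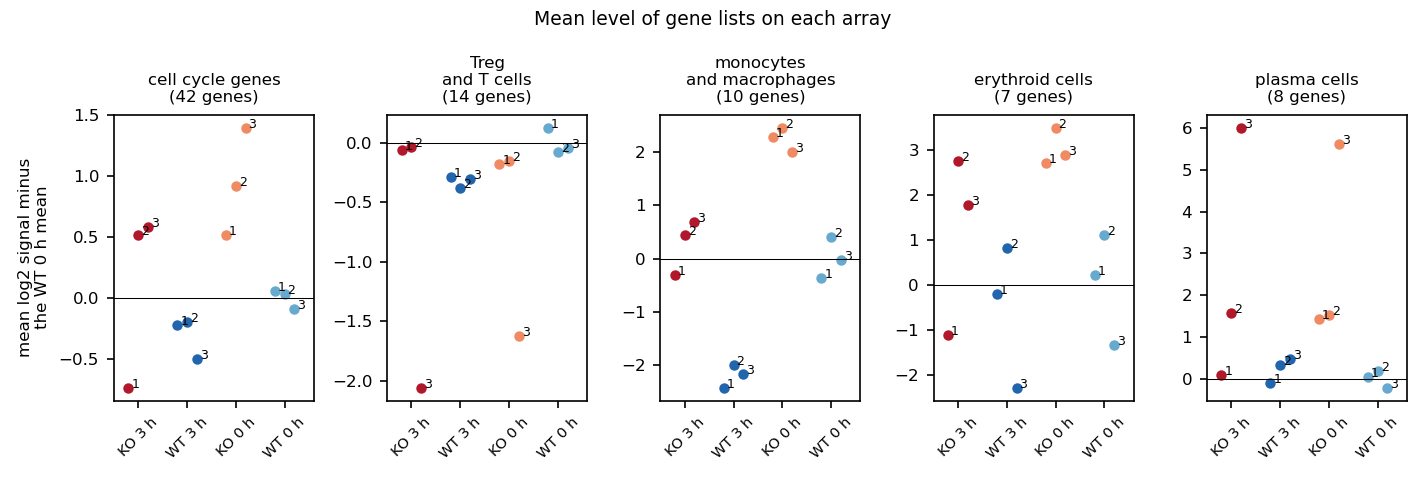
Mean log2 signal of 5 gene lists on each array, relative to the mean of WT at 0 h, with points numbered by replicate and a scale of its own for each panel. KO at 3 h replicate 1 is the lowest of its group for every list shown except the T cell markers. The 21-week arrays (replicate 3 of KO) are high for plasma cell markers.

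The probe standing for the gene exceeded background on 12 of 12 arrays for 39 of the 42 tested members. The exceptions were Cdk6, Tyms and Cdc6, the last with 2 of 3 arrays above background in either genotype at 3 h and 3 of 3 at 0 h. Some of the 39 were dim all the same, such as Cdkn1a at 0 h, with means of -5.15 in KO and -5.62 in WT. The dimmest signal that counted as well above background on the 0 h arrays ran from -7.53 to -6.76. Cenpf and Chek1 stayed out, each with 1 probe: Cenpf exceeded background on 1 array, of KO at 0 h, and Chek1 on 1 array, of WT at 0 h. Of the tested members 30 had 1 probe and 12 had more, and their probes had the same sign in all comparisons between groups except for Cdkn1a at 0 h, where 1 of its probes was not above background.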

How the data were processed

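RNA of sorted splenic Treg, amplified from 20 ng for 1 sample at 0 h and 40 ng for the rest per the labels' protocols, was hybridized to 12 Agilent arrays with the dye Cy3. Each deposited file gives linear intensity per spot, background-subtracted within its array by Agilent Feature Extraction (10.7.3.1 in the file headers, 11 in the submitters' processing notes). The authors' table, deposited as log2 values with Partek named in the submitters' processing notes, has a median of 3.89 on every array; its scaling and centring are known from the values alone. It served as an alternative.

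Control and outlier spots were dropped, spots of a probe averaged as log2, and each array shifted by its 75th percentile over 19798 probes that exceeded background on every array, because on most arrays fewer probes were above background than not. The tests used limma (3.58.1, R 4.3.3; lmFit and eBayes, two-sided) with 4 group means and 8 residual degrees of freedom; p-values were adjusted after Benjamini-Hochberg over 18544 genes, with a threshold of 0.05. The scripts, which also used data.table (1.17.8), jsonlite (2.0.0), Python and matplotlib, were tested on simulated data.

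Alternatives were normexp (offset 50), scaling on all probes, quantile normalization, the deposited table, no or a stricter filter on dim probes, and the mean of a gene's probes. Further ones were the 21-week arrays left out or as a term, a fit of the KO slide alone, and each array left out. The text names up to 12 called members a comparison by the size of the moderated statistic, or 3 by the size of the difference where fewer than 3 were called, and up to 4 other cell cycle genes a direction; Mki67, Ccne1 and further examples by role were chosen with their values known. The members, roles, motif words and gene lists were chosen with earlier results of these data known, so no p over the members alone is given.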

Additional observations from a re-analysis of the deposited data

Results flagged for a closer look

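The KO minus WT difference of Kif23 had opposite signs at the 2 times, which is why it is listed here; after activation Kif23 rose in WT by 2.12 ± 0.256, and its difference in KO was 0.01 ± 0.256. Its KO minus WT difference was -0.88 ± 0.256 at 3 h, with all 3 KO arrays below all 3 WT arrays, and 1.22 ± 0.256 at 0 h, with all 3 KO arrays above all 3 WT arrays; the 3 h difference was not called (limma adjusted p = 0.193). The test of the change itself, the KO minus WT difference of the activation effects, gave -2.10 ± 0.363 with a limma adjusted p of 0.441 over 18544 genes and an unadjusted p of 0.000175.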

How the results depend on the processing

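Each difference named in the text by the rule kept its sign under every alternative run: 550 stayed on their side of the threshold, 102 no longer passed it and 4 newly passed it. The members higher in KO at 0 h (2) were 1 with normexp, 0 with scaling on all probes and 0 with no filter on dim probes. The shares of all genes were 1.4%, 1.4% and 0.776%, against 1.82%. The members higher in KO at 3 h (0) were 1 with no filter, the dim Cenpf, where 4961 of all genes were called higher. In KO after activation (1 higher, 10 lower), 4 were lower with no filter (3.21% of all genes, against 9.79%). Without the 21-week arrays 4 were higher and 16 lower (20.2% and 25.9% of all genes, against 7.38% and 9.79%). With a term for those arrays 23 were lower (20.6%), and in a fit of the KO slide alone, with 6 arrays, 0 were lower (0.329%). In WT 8 were lower, against 5, with the 21-week term (28% of all genes, against 16.6%). Chosen after seeing the data, the counts of members with separated arrays without the 21-week arrays were 3 lower in KO at 3 h (1 with all arrays), and 5 higher and 25 lower after activation in KO (1 and 14). Of all genes, 12.1% were then separated lower in KO at 3 h (7.39% with all arrays). After activation in KO 31.5% of all genes were separated higher and 38.1% lower (10.9% and 13.5%). Scaling on all probes moved the median KO minus WT difference of all genes to -0.16 at 3 h (0.04 otherwise) and to -0.21 at 0 h (-0.03 otherwise), with member medians of 0.32 and 0.91; of the calls over all genes at 0 h, 73.0% were then higher, against 87.5%. Leaving out each array in turn gave 0 to 12 members higher in KO at 3 h and 0 to 10 at 0 h, both highest without KO at 3 h replicate 1, which also gave 32 separated higher at 3 h against 1 (22.5% of all genes against 11.8%). The shares of all genes called higher ran from 0.626% to 2.67% at 3 h and from 0.383% to 4.72% at 0 h. After activation, leaving out each array gave 1 to 4 higher and 4 to 23 lower in KO, both highest without KO at 3 h replicate 3, and 3 to 5 higher and 4 to 7 lower in WT. The shares of all genes ran from 4.09% to 17% higher and 5.46% to 20.2% lower in KO. In WT they ran from 8.23% to 18.2% higher and 10.8% to 23% lower. No paired analysis was possible because replicate numbers were given in accession order and no label ties arrays of different groups to a mouse. Probes dim in 1 group set a bound on a fold and not its size, and 3 arrays a group limit every test.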
